A study of Mus musculus with 21 samples.

Results

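Regulated IRE1-dependent decay, abbreviated RIDD, is the breakdown of mRNAs that the endoplasmic reticulum sensor IRE1 cuts. The 7 genes described here, Bloc1s1, Scara3, Hgsnat, Pmp22, Sparc, Col6a1 and Pdgfrb, encode mRNAs reported elsewhere as such substrates, and were found by symbol among the 45706 genes of the count table, 1 row each. The data are RNA-seq of polyadenylated RNA from Myc-CaP, a line from a prostate tumour of a Myc-transgenic mouse, grown in culture (8 libraries) or as tumours in FVB mice (13 libraries). Wild-type Myc-CaP cells (WT) gave 2 cell and 4 tumour libraries. Lines KO1, KO2 and KO3, in which CRISPR-Cas9 with a single guide was aimed at the gene for IRE1α (Ern1), gave 2 cell and 3 tumour libraries each. WT is thus 1 line and KO is 3 lines, the tumour genotype is that of the injected cells, and the host mice are not described as lacking IRE1. WT tumours 3 and 4 may come from 1 mouse, since the labels give both the same number, so the WT group may hold fewer mice than tumours. The labels used here give neither the age of the mice nor the time of collection. They do not say whether replicate cell libraries are separate cultures either, so a p-value reflects library-to-library spread that may be technical.

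IRE1 is a kinase and RNase in the membrane of the endoplasmic reticulum. When unfolded proteins build up there, it cuts the Xbp1 mRNA at a pair of stem-loops, and the spliced message encodes XBP1s, a transcription factor that turns on chaperone and secretory genes. In RIDD the same RNase cuts other mRNAs, often at a like stem-loop, and these are then degraded, so loss of IRE1 is known to let such substrates build up in some cells under stress. Bloc1s1, also called Blos1, is the substrate reported across the most cell types, and its fall on IRE1 activation is widely used as a RIDD readout.

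The known target of the enzyme and the stretches that look like it are shown because they are the feature by which RIDD substrates are usually recognised. The search took the 7-base loop CNGCAGN closed directly by at least 4 base pairs, with G-U pairs allowed, in 1 transcript per gene of GENCODE M21 (GRCm38), on the transcript strand only. Capitals mark the loop and lower case the paired stem, 5′ to 3′, with the letters of DNA.
Xbp1 site 1: ctgagtCCGCAGCactcag
Xbp1 site 2: tgcacctCTGCAGCaggtgca
Bloc1s1: gcagCTGCAGTctgc
Scara3: gggccCTGCAGAggccc
Pmp22: atggCTGCAGTctgt

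Both Xbp1 sites lie in the coding part of exon 4, at chr11:5524270-5524288 and chr11:5524295-5524315 on the plus strand, with stems of 6 and 7 pairs. Of the 7 genes, 3 held such a stem-loop. The Bloc1s1 stretch, at chr10:128920007-128920021 on the minus strand in the coding part of exon 4, has a stem of 4 Watson-Crick pairs. In Scara3 the stretch is in the 5′ UTR, in exon 1 at chr14:65953517-65953533 on the minus strand, and its stem has 5 pairs. The Pmp22 stretch, in the coding part of exon 4 at chr11:63151120-63151134 on the plus strand, has 4 pairs and needs G-U pairs among them. No stretch of this form was found in the 1 transcript searched of each of Hgsnat, Sparc, Col6a1 and Pdgfrb. This says only that these letters are not in those transcripts. For Sparc the transcript has 1366 bases, while the exons of all its transcripts cover 3788 bases.

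A loop with such a stem is found in 11.4% of 21901 protein-coding transcripts, and the bare loop in 92.9%. Among transcripts within 10% of the same length, 2.27% held one at the length of Bloc1s1, 13.8% at that of Scara3 and 7.32% at that of Pmp22. The stem-loop is therefore scarcer among short transcripts like that of Bloc1s1 than among transcripts like that of Scara3. With Watson-Crick pairs alone 3.02% of all transcripts and 2 of the 7 held one. With at least 5 pairs it was 4.7% of all transcripts and 1 of the 7, Scara3.

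The total of estimated counts was 18105510 to 25068239 in cell libraries and 15994265 to 27497767 in tumour libraries. Levels are CPM, counts scaled to a common library size by TMM over all 21 libraries. Ern1 RNA was 118 and 133 CPM in WT cells, 171 to 196 CPM in KO cells and 60.3 to 92.0 CPM in tumours. Its counts cover the whole gene and do not show whether the edit is present. The 12 XBP1s target genes, among them Sec61a1 of the translocon and Sec24d of the COPII coat, fell in KO cells (12 of 12; median log2 change -1.40). In tumours 12 of 12 passed the test as lower in KO1, 12 of 12 in KO2 and 1 of 12 in KO3. Sec24d stood at 54.1 ± 4.14 CPM (SD, n = 3) in KO3 tumours against 76.5 ± 6.99 (n = 4) in WT. Sec61a1 was at 403 ± 12.8 CPM in KO3 tumours against 508 ± 58.7 in WT tumours. In cells it was at 285 CPM in KO3 against 715 in WT. Dnajb9, another of the 12, was at 38.6 ± 2.14 CPM in KO3 tumours against 48.5 ± 6.76 in WT tumours. In cells it was at 9.71 CPM in KO3 against 29.3 in WT. The tumours labelled KO3 therefore showed a smaller drop of these genes than KO3 cells. The main pooled tests of the 7 genes are also given without the KO3 tumours. Pooled tumour values of other genes, and correlations over the KO tumours, include the KO3 tumours. WT tumour 1 stood apart from the other WT tumours through skeletal muscle markers, which summed to 3973 CPM in it, the highest of the 13 tumours. Tests of the 7 genes that rest on WT tumour 1 are also given without it. WT tumour 4 also stood apart, with the lowest TMM factor of all libraries (0.765). Over all genes, its chi-square per degree of freedom was 220 against WT tumour 2 and 152 against WT tumour 3. For WT tumour 1 these were 102 and 64.1.

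In cultured cells none of the 7 mRNAs rose past the test without IRE1. Bloc1s1, Hgsnat, Pmp22 and Sparc had enough counts to be tested, and of these 0 rose and Sparc, a secreted collagen-binding glycoprotein, fell. Scara3, Col6a1 and Pdgfrb were at or near 0 counts in every cell library. Over all 12254 genes tested in KO against WT cells, 14.8% passed an adjusted p of 0.05 in edgeR's quasi-likelihood test, 4.99% as higher and 9.76% as lower. The median log2 change of the 4 tested members was -0.18 and that of all genes was 0.02.

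Bloc1s1 encodes a subunit of the BLOC-1 and BORC complexes, which sort cargo to lysosome-related organelles and position lysosomes. It stood at 43.3 and 34.9 CPM in WT cells, at 37.0 and 31.3 in KO1, at 33.7 and 44.3 in KO2 and at 38.0 and 33.0 in KO3. Replicates of a line lay as far apart as the lines did, and the WT values were inside the KO range. The log2 change of KO against WT was -0.11 ± 0.13 (SE; adjusted p = 0.603), with a 95% interval of -0.41 to 0.19 in this fit. Leaving out 1 library moved the change to between -0.26 and 0.051, and that of KO2 against WT to between -0.21 and 0.18. The interval does not cover this dependence on single libraries, so its upper end is no firm limit on a rise.

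The gene Bloc1s1 (ENSMUSG00000090247, chr10:128917882-128924035, minus strand) overlaps Rdh5, a retinol dehydrogenase gene on the same strand, and reads of the shared stretch could be given to either. Rdh5, named for this overlap after its values were seen, was at 1.78 and 1.92 CPM in WT cells and 1.33 to 2.66 CPM in KO cells. That is far below Bloc1s1 in the same libraries, at 39.1 ± 5.98 CPM in WT (SD, n = 2) and 36.2 ± 4.69 in KO (n = 6).

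Hgsnat (ENSMUSG00000037260, chr8:25944453-25976753) encodes the lysosomal acetyltransferase of heparan sulfate breakdown. Its levels were 26.6 and 25.6 CPM in WT cells, 29.2 and 27.4 in KO1, 26.8 and 27.1 in KO2 and 27.4 and 31.1 in KO3. All 6 KO libraries were above both WT libraries, as was so for 16.1% of the genes tested, though KO2 at 26.8 CPM came close to WT at 26.6. The log2 change was 0.11 ± 0.08 (SE; adjusted p = 0.389; 95% interval -0.07 to 0.29) and did not pass the test.

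Pmp22 (ENSMUSG00000018217, chr11:63128982-63159547), a tetraspan membrane protein best known from peripheral myelin, stood at 41.7 and 43.5 CPM in WT cells. The KO libraries read 39.9 and 36.4 CPM in KO1, 36.4 and 39.8 in KO2 and 30.2 and 33.9 in KO3. Every KO library was below both WT libraries, as for 19.3% of the genes tested, and the KO3 libraries were the lowest. The log2 change of -0.24 ± 0.11 did not pass (adjusted p = 0.156; 95% interval -0.47 to -0.00), while it did with the lines fitted as separate groups, at the same size (adjusted p = 0.0174).

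Sparc (ENSMUSG00000018593, chr11:55394500-55423183) was the most abundant of the 7 in cells, also per kilobase of exon, at 167 CPM per kb in WT cells against 30.4 for Bloc1s1, 18.1 for Pmp22 and 7.90 for Hgsnat. It read 629 and 635 CPM in WT cells, 373 and 457 in KO1, 432 and 424 in KO2 and 413 and 473 in KO3. All 6 KO libraries lay below both WT libraries, as for 19.3% of the genes tested, with a gap between 473 and 629 CPM. The mean went from 632 ± 4.52 CPM (SD, n = 2) to 429 ± 35.1 (n = 6), a log2 change of -0.56 ± 0.09 (SE; adjusted p = 0.00434; 95% interval -0.77 to -0.35). The call was lost with either WT library left out (-0.57, adjusted p = 0.0656 without replicate 1; -0.55, adjusted p = 0.0654 without replicate 2) and with the libraries of each line summed to 1 (-0.55, adjusted p = 0.203), the size staying within those values. The 8 fibroblast markers summed to at most 20.9 CPM in a cell library, mostly from Pdgfra, and Col3a1, Lum and Fap were at 0 in all of them.

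**Figure D1:**
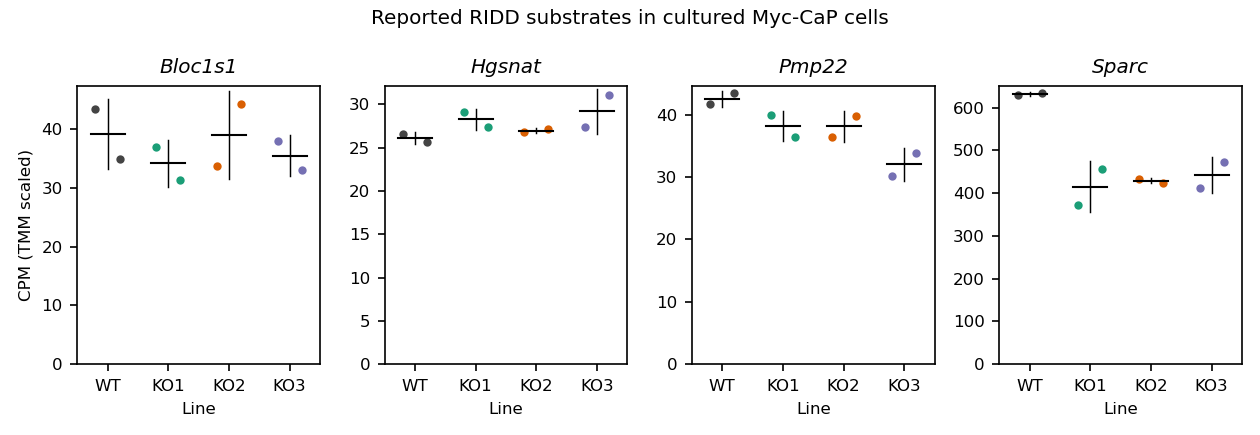
Level of Bloc1s1, Hgsnat, Pmp22 and Sparc in cultured cells, in CPM with TMM scaling, by line. Points are libraries (2 per line), horizontal bars means and vertical bars the SD; the Sparc points of KO1, KO2 and KO3 lie between 373 and 473 CPM, below both WT points, while those of Bloc1s1 overlap.

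By line, Sparc fell in each of the 3 knockout lines, and Pmp22 fell in KO3. These tests took the lines as groups and share the 2 WT libraries, so the 3 comparisons are not independent, and they called 38.2% of genes in KO1, 37.7% in KO2 and 24.4% in KO3. Lower calls alone were 20.5%, 20.2% and 14.1%. Sparc had log2 changes of -0.61 in KO1 (adjusted p = 0.000565), -0.56 in KO2 (0.00107) and -0.51 in KO3 (0.00331). Pmp22 had -0.41 ± 0.10 in KO3 (adjusted p = 0.00555), and -0.16 in both KO1 (0.169) and KO2 (0.182). The KO3 call on Pmp22 was lost without WT replicate 2 (-0.37, adjusted p = 0.0602) or without KO3 replicate 1 (-0.33, adjusted p = 0.0655).

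Bloc1s1 and Hgsnat passed in no line. The log2 changes of Bloc1s1 were -0.20, -0.00 and -0.14 in KO1, KO2 and KO3, and those of Hgsnat 0.11, 0.05 and 0.16. An F test over the 3 knockout lines, which called 30.3% of genes, found no difference among them for any of the 4 genes, with adjusted p from 0.0644 (Pmp22) to 0.758 (Sparc).

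**Figure D2:**
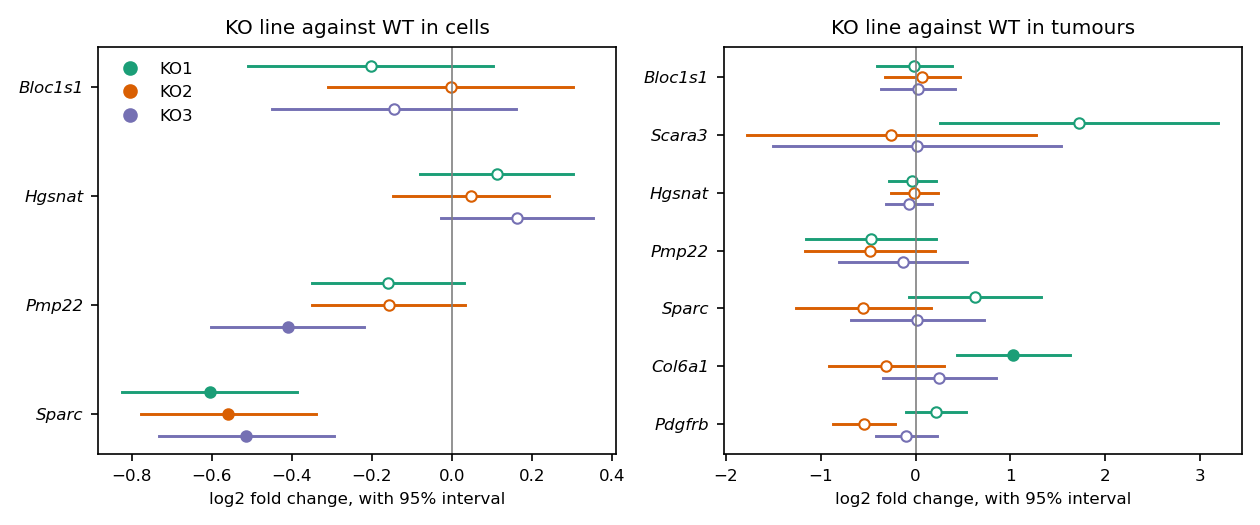
Log2 fold change of each knockout line against WT with its 95% interval, in cells (left) and tumours (right); filled points passed an adjusted p of 0.05. In cells Sparc is filled in all 3 lines and Pmp22 in KO3; in tumours Col6a1 in KO1 is the filled point, and Scara3, Col6a1 and Pdgfrb had too few counts for a test in cells.

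Scara3 (ENSMUSG00000034463, chr14:65919394-65953935), a class A scavenger receptor family member induced by oxidative stress, had 0 counts in all 8 cell libraries. A count of 0 allows up to 0.120 to 0.166 CPM in a cell library, taking 3 counts as the limit and counting error only. Col6a1 (ENSMUSG00000001119, chr10:76708792-76726168), the α1 chain of collagen VI, had 1 count over the WT cell libraries and 4 over the KO cell libraries. Pdgfrb (ENSMUSG00000024620, chr18:61045150-61085061), the PDGF receptor of pericytes and fibroblasts, had 1 count in WT replicate 2 and 0 in every KO library. A rise of these mRNAs to a measurable level without IRE1 was therefore not seen in cultured cells, and no change below that limit was detectable at this depth.

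In tumours each of the 7 mRNAs was detected. Cell counts were summed over a group and tumour CPM averaged over libraries, both without TMM scaling. Against a limit of 3 counts over the cell group, mean Scara3 was at least 16.1-fold higher in WT tumours than in WT cells. In KO tumours it was at least 92.7-fold higher than in KO cells. WT tumour 1 held 62 of the 95 Scara3 counts of WT tumours, with 17, 13 and 3 in WT tumours 2 to 4. The WT figure for Scara3 was not computed without WT tumour 1. Pdgfrb was at least 825-fold higher in KO tumours than in KO cells. Against single counts the ratios are loose: 793 (95% interval 142 to 31320) for Pdgfrb in WT, 1786 (321 to 70537) for Col6a1 in WT and 1989 (777 to 7301) for Col6a1 in KO. The intervals cover the counting error of the cell counts only and leave out the spread among tumours. Tumour tissue holds host cells, and the fibroblast and the pericyte and smooth muscle markers went with these genes: 16 of 16 were detected in every tumour, where they summed to 603 to 3430 CPM, against at most 21.8 CPM with 8 to 10 of the 16 at 0 in a cell library. In bulk tissue, more cells of a type and more RNA per cell cannot be told apart.

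Genes already measured in cells moved less between settings. Over the 15173 genes of the fit on all libraries, 56.0% were called between WT tumours and WT cells and 74.3% between KO tumours and KO cells, 43.8% as higher and 30.4% as lower. Hgsnat was lower in KO tumours than in KO cells (log2 -0.38 ± 0.07, adjusted p = 3.97e-05), as was Pmp22 (-0.75 ± 0.19, adjusted p = 0.00133). Bloc1s1 was slightly higher there (0.27 ± 0.12, adjusted p = 0.0424), a call lost with no filter on low counts (0.22, adjusted p = 0.121). Sparc did not pass (-0.21 ± 0.26, adjusted p = 0.460). Without KO3, Hgsnat (-0.34, adjusted p = 0.00298) and Pmp22 (-0.96, adjusted p = 0.00238) stayed called, while Bloc1s1 (0.25, adjusted p = 0.132) and Sparc (-0.14, adjusted p = 0.733) did not pass.

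Between WT tumours and WT cells none of these 4 passed, at -0.89 ± 0.41 for Sparc (adjusted p = 0.0713), -0.64 ± 0.31 for Pmp22 (0.0849), -0.25 ± 0.11 for Hgsnat (0.0643) and 0.10 ± 0.19 for Bloc1s1 (0.656). Without WT tumour 1, Sparc (-1.37, adjusted p = 0.00390), Pmp22 (-1.18, adjusted p = 2.61e-05) and Hgsnat (-0.33, adjusted p = 0.0152) were lower in WT tumours.

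Knockout against WT tumours, 9 against 4, gave no call for any of the 7 genes, whereas 3.65% of 14200 genes passed. The log2 changes were 0.04 ± 0.13 for Bloc1s1, 0.79 ± 0.70 for Scara3, -0.03 ± 0.09 for Hgsnat, -0.34 ± 0.24 for Pmp22, 0.12 ± 0.33 for Sparc, 0.44 ± 0.34 for Col6a1 and -0.10 ± 0.18 for Pdgfrb, with adjusted p from 0.450 (Pmp22) to 0.899 (Bloc1s1). The median of the 7 was 0.04 and of all genes 0.00. Without the KO3 tumours the 7 adjusted p ran from 0.328 (Pmp22, -0.49) to 0.935 (Bloc1s1, 0.03), and with WT tumours 3 and 4 summed to 1 sample from 0.331 (Pmp22, -0.48) to 0.981 (Bloc1s1, -0.0088). Intervals were narrow for Hgsnat (-0.21 to 0.16) and Bloc1s1 (-0.25 to 0.32), and wide for Scara3 (-0.70 to 2.28) and Sparc (-0.59 to 0.83).

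Bloc1s1 read 35.6, 39.7, 43.3 and 49.4 CPM in WT tumours and 33.0 to 55.1 CPM in the 9 KO tumours, with a median of 43.1. Hgsnat read 17.8, 21.9, 22.4 and 25.6 CPM in WT tumours and 20.1 to 24.1 in KO tumours, with a median of 21.9. For both genes the KO and WT ranges overlapped almost wholly, and no line stood out.

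Pmp22 read 19.6, 19.4 and 17.2 CPM in WT tumours 2 to 4, and 52.9 in WT tumour 1. The KO1 tumours read 23.3, 21.7 and 15.3 CPM, the KO2 tumours 20.5, 19.0 and 17.8 and the KO3 tumours 26.7, 19.9 and 28.4. WT tumour 1 was far above all the others, and without it the log2 change of KO against WT turned from -0.34 to 0.14 (adjusted p = 0.650). Besides muscle, the same tumour had the highest score, a mean log2 CPM, of the 13 for the Schwann cell (2.36), adipocyte (4.75), leukocyte (5.68), endothelial (4.28), epithelial (1.86) and pericyte and smooth muscle (4.40) markers, whose part in the Pmp22 value was not tested.

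Sparc, Scara3, Col6a1 and Pdgfrb varied by line in tumours, with KO1 highest in the mean of each. Sparc read 628, 314, 271 and 150 CPM in WT tumours, 575, 590 and 447 in KO1, 242, 251 and 189 in KO2 and 403, 286 and 347 in KO3. KO1 lay above KO2 and KO3 without overlap, and the 4 WT tumours spanned nearly the whole range. Against WT, KO1 had a log2 change of 0.63 ± 0.32 (adjusted p = 0.236) and KO2 of -0.55 ± 0.33 (0.389), in tests that called 10.6% and 3.04% of genes, and KO3 one of 0.02 ± 0.32 (0.989), where 1.24% were called. Without WT tumour 1 the KO1 difference passed (1.06, adjusted p = 0.0102), while the lowest value on leaving out 1 tumour was 0.39. Without WT tumour 1 and with the stromal score, a mean of stromal markers, as a covariate, it was 0.09 (adjusted p = 0.840). The KO2 value in tumours was close to that in KO2 cells (-0.56), with a wider error. The tumour value shrank to -0.12 without WT tumour 1 (adjusted p = 0.823) and to -0.03 with the stromal score as a covariate (adjusted p = 0.906). The interaction, 0.68 ± 0.49, did not pass (adjusted p = 0.704; 0.75, adjusted p = 0.644 without KO3), in a test that called 0.962% of genes.

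Scara3 was the least abundant, at 3.12, 0.66, 0.78 and 0.24 CPM in WT tumours, from 62, 17, 13 and 3 counts. It read 5.12, 5.30 and 1.83 CPM in KO1, 1.13, 1.21 and 0.61 in KO2 and 1.84, 0.43 and 1.37 in KO3. A pair of KO1 tumours were the highest of all, with WT tumour 1 next. The KO1 difference of 1.73 ± 0.68 did not pass (adjusted p = 0.124) and did without WT tumour 1 (2.73, adjusted p = 0.00885). Without that tumour and with the stromal score as a covariate it was 0.33 (adjusted p = 0.846). The changes of -0.25 ± 0.70 in KO2 and 0.01 ± 0.70 in KO3 were small beside their errors.

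Col6a1 read 66.5, 47.3, 43.8 and 20.1 CPM in WT tumours, 87.4, 101 and 91.1 in KO1, 42.3, 32.8 and 31.0 in KO2 and 54.4, 40.2 and 65.7 in KO3. All KO1 tumours were above all others, and 11.5% of genes had all KO1 tumours above all WT tumours. In KO1 against WT it rose (log2 1.03 ± 0.28, adjusted p = 0.0329), the only member to pass in that comparison, in which 3.71% of genes were called higher. The call was lost without WT tumour 2 or 3 or without any of the 3 KO1 tumours (0.99 to 1.08, adjusted p 0.0625 to 0.0874), and with the stromal score, a mean of stromal markers, as a covariate it was 0.68 (adjusted p = 0.0413). With the covariate and without WT tumour 1 it was 0.35 (adjusted p = 0.585). Other markers were also higher in KO1 than in WT tumours, with a mean log2 CPM of 6.30 ± 0.23 (SD, n = 3) against 5.25 ± 0.59 (n = 4) for macrophages and 6.27 ± 0.71 against 1.78 ± 5.23 for skeletal muscle, and their part in the Col6a1 value was not tested. Changes in KO2 (-0.31 ± 0.28) and KO3 (0.25 ± 0.28) did not pass.

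Pdgfrb read 24.1, 22.0, 16.9 and 17.6 CPM in WT tumours, 20.3, 28.3 and 24.0 in KO1, 13.5, 14.6 and 12.9 in KO2 and 19.8, 16.1 and 21.6 in KO3. The KO2 tumours were below every other tumour, and 9.73% of genes had all KO2 tumours below all WT tumours. Against WT, KO2 had a log2 change of -0.54 ± 0.15 (adjusted p = 0.0734), KO1 of 0.22 ± 0.15 (0.380) and KO3 of -0.10 ± 0.15 (0.827). The F test among knockout lines, which called 2.95% of genes, passed for Pdgfrb (adjusted p = 0.0491) and not for Col6a1 (0.0610), Sparc (0.164) or Scara3 (0.216). That call was lost on leaving out 8 of the 9 KO tumours in turn (adjusted p 0.0599 to 0.171), under another scaling (0.0505) and with the stromal score as a covariate (0.185).

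**Figure D3:**
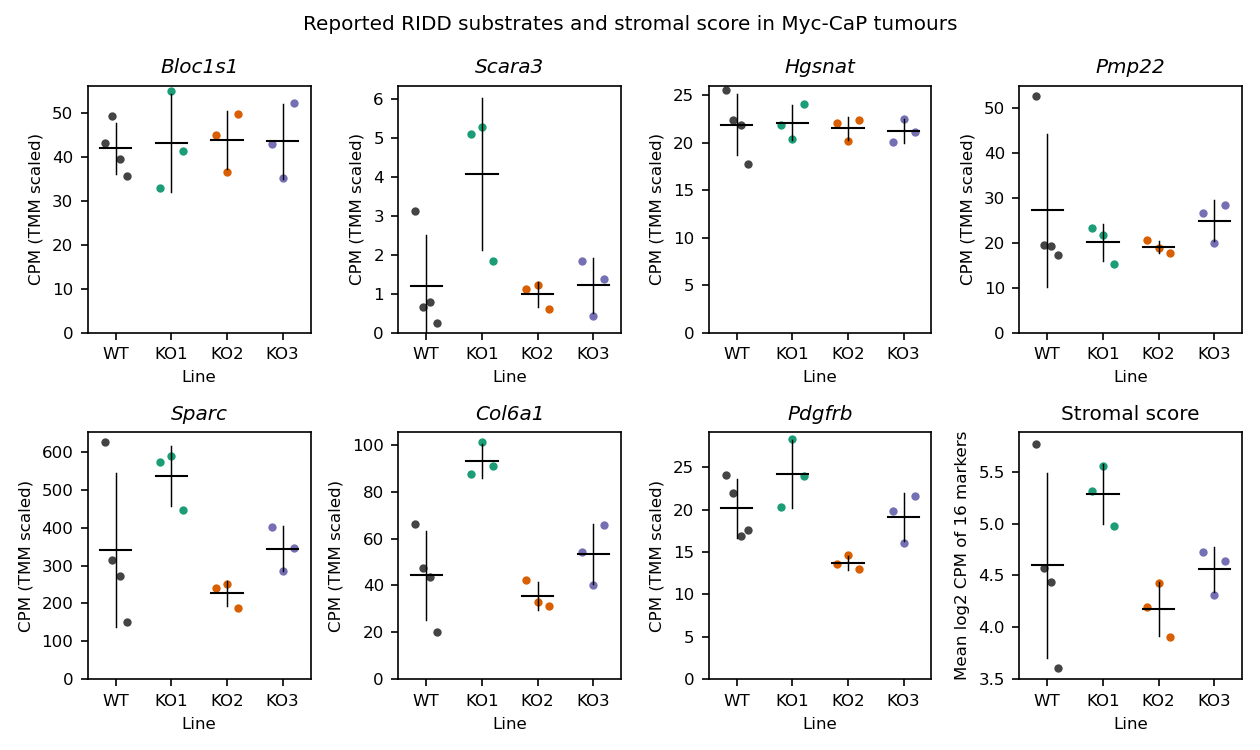
Level of the 7 genes in tumours by line, in CPM with TMM scaling, and the stromal score (bottom right). Points are tumours (4 WT, 3 per knockout line), horizontal bars means and vertical bars the SD; Col6a1 is at 87.4 to 101 CPM in KO1, above all other tumours, and Pdgfrb at 12.9 to 14.6 CPM in KO2, below all others.

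The stromal score, the mean log2 CPM of the 16 fibroblast and pericyte and smooth muscle markers, holds none of the 7 genes. It was 5.77, 4.57, 4.43 and 3.60 in WT tumours, 5.32, 5.55 and 4.98 in KO1, 4.20, 4.43 and 3.90 in KO2 and 4.72, 4.31 and 4.64 in KO3. Its mean was highest in KO1 and lowest in KO2, as for Sparc, Scara3, Col6a1 and Pdgfrb. WT stood above KO3 in the mean score, as for Pdgfrb, and below KO3 for Sparc, Scara3 and Col6a1. The score was the highest of all in WT tumour 1. Its range in cells was -2.57 to -2.29.

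Across the 13 tumours, log2 CPM of Sparc tracked this score most closely (Pearson r = 0.98, Spearman rho = 0.98, permutation p = 1e-05 for each, the smallest that 100000 permutations can give). Over the 7 relations computed, the Benjamini-Hochberg value for Sparc was 7e-05. For Scara3, r was 0.90 and rho 0.90 (permutation p = 6e-05 and 7e-05, adjusted 0.000163 for each). For Col6a1 r was 0.88 and rho 0.93 (permutation p = 7e-05 and 2e-05, adjusted 0.000163 and 7e-05), and for Pdgfrb 0.78 and 0.84 (permutation p = 0.00191 and 0.00069, adjusted 0.00334 and 0.00121).

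Pmp22 had r of 0.62 and rho of 0.59 (permutation p = 0.0217 and 0.0376, adjusted 0.0304 and 0.0526), Hgsnat 0.51 and 0.24 (0.0756 and 0.436, adjusted 0.0882 and 0.509) and Bloc1s1 0.18 and 0.18 (0.561 and 0.556, adjusted 0.561 and 0.556). Without the 2 tumours farthest from the median score, WT tumour 1 and KO1 tumour 2, r was 0.99 for Sparc, 0.89 for Scara3, 0.94 for Col6a1 and 0.65 for Pdgfrb. It was 0.36 for Pmp22, 0.49 for Hgsnat and -0.12 for Bloc1s1, so the Pmp22 relation rests on those tumours. Within the 9 KO tumours r was 0.98, 0.92, 0.92 and 0.90 for Sparc, Scara3, Col6a1 and Pdgfrb and 0.22, -0.18 and 0.0084 for Pmp22, Hgsnat and Bloc1s1; the 4 WT tumours are too few for a value of their own. All tumours share the scaling over libraries. The part of host stroma in the tumour levels was not tested beyond these values.

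**Figure D4:**
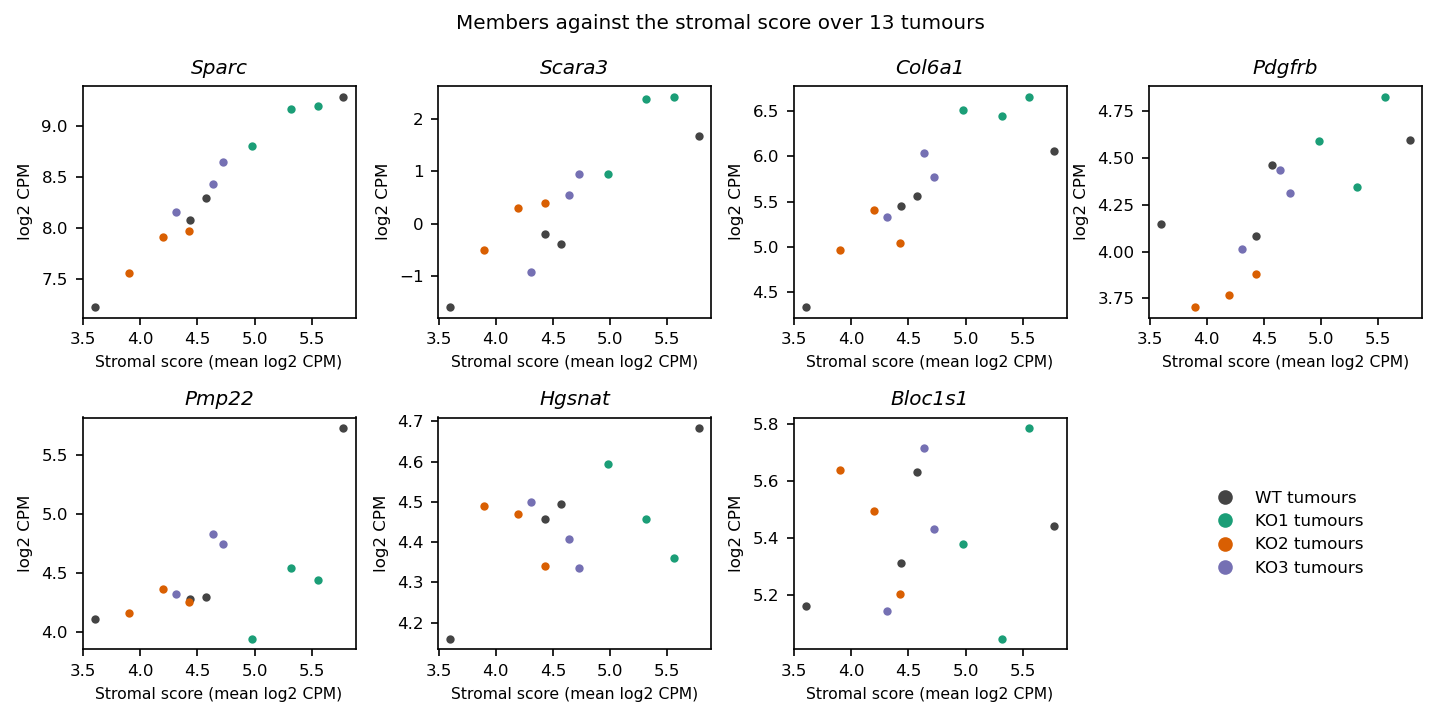
Log2 CPM of each gene (vertical) against the stromal score, the mean log2 CPM of 16 markers (horizontal), over 13 tumours, 1 point each, with colours for the line. Sparc rises with the score over all tumours (r = 0.98), whereas Bloc1s1 does not (r = 0.18).

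With the stromal score as a covariate in the fit by line, Pmp22 was lower in KO1 tumours than in WT (log2 -0.85, adjusted p = 0.00908), against -0.47 ± 0.32 (adjusted p = 0.377) without it. It also then differed among knockout lines (adjusted p = 0.0440). Both calls rest on WT tumour 1, which is highest in Pmp22 and in the score: without it the KO1 change was 0.021 with no covariate (adjusted p = 0.947) and -0.40 with it (adjusted p = 0.465), and the lines did not differ with the covariate (adjusted p = 0.210). With all tumours and the covariate, Sparc in KO1 came down from 0.63 to 0.18 (adjusted p = 0.287), and Scara3 did not pass (adjusted p = 0.0946).

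The order of mean levels over the 8 groups differed from gene to gene. Bloc1s1 ran from 34.1 ± 4.03 CPM in KO1 cells (SD, n = 2) to 43.8 ± 6.60 in KO2 tumours (n = 3), each neighbour overlapping the next. Hgsnat was higher in every cell group, from 26.1 ± 0.72 to 29.2 ± 2.59 CPM, than in any tumour group, from 21.3 ± 1.24 to 22.1 ± 1.82, and the tumour groups overlapped. Pmp22 was highest in WT cells (42.6 ± 1.30 CPM), above KO1 and KO2 cells without overlap, and lowest in KO2 tumours (19.1 ± 1.37). Sparc was highest in WT cells, followed by KO1 tumours (538 ± 78.7), the 3 groups of KO cells, and the other tumours down to KO2 (227 ± 33.4). Col6a1 and Pdgfrb were ordered alike at the ends, with KO1 tumours first (93.3 ± 7.16 and 24.2 ± 4.03) and KO2 tumours last among tumours (35.4 ± 6.03 and 13.7 ± 0.87).

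Other mRNAs reported as cut by IRE1 were looked at in the same way. Of 6 listed, 5 were tested in cells, and 1 rose and 1 fell, where 4.99% of all genes passed as higher and 9.76% as lower. The one that rose was Ern1 itself, the IRE1α gene and the target of the guide (0.56 ± 0.09, adjusted p = 0.00341). Its change cannot be told apart from an effect of the edit on its own RNA. Ergic3, a cargo receptor between endoplasmic reticulum and Golgi, fell from 129 ± 1.25 to 88.4 ± 6.02 CPM (log2 -0.55 ± 0.08, adjusted p = 0.00196). Tnfrsf10b, a TRAIL death receptor, had -0.27 ± 0.10 (adjusted p = 0.0982) and Tapbp, tapasin of MHC class I loading, -0.46 ± 0.24 (adjusted p = 0.223). In tumours 5 of the 6 were tested and none passed.

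Partners of the members were mostly below the threshold in cells. Of the other BLOC-1 and BORC subunits 0 of 8 tested passed in cells, with Kxd1 at -0.25 ± 0.08 (adjusted p = 0.0758) and Snapin at -0.22 ± 0.09 (0.123). In tumours 1 of 8 fell, Snapin, from 56.5 ± 8.24 to 43.0 ± 3.23 CPM (log2 -0.41 ± 0.09, adjusted p = 0.0239).

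The scavenger receptor Scara5, which takes up ferritin, fell in cells (-0.74 ± 0.16, adjusted p = 0.0142; the only one of 4 that was tested) and did not pass in tumours (-0.23 ± 0.13, adjusted p = 0.353). In the SPARC family 1 of 3 tested fell in cells, Smoc1, from 130 ± 3.87 to 87.6 ± 11.7 CPM (-0.57 ± 0.12, adjusted p = 0.0133). Smoc1 in tumours was 0.09 ± 0.07 (adjusted p = 0.538), and the difference between settings passed the interaction test for it, 1 of 5 tested in that family. None of 2 tested in the PMP22 family, none of 3 among PDGF ligands and receptors and not Col6a3, the only tested collagen VI chain, passed in cells.

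The collagen VI chains, which form heterotrimers with the α1 chain and need not share the same one, moved by line in tumours. In KO1 against WT, where 3.71% of genes were called higher, 2 of 4 tested rose, Col6a2 (1.15 ± 0.30, adjusted p = 0.0293) and Col6a5 (3.87 ± 0.85, adjusted p = 0.0145). Col6a2 stood at 38.9 ± 17.7 CPM in WT and 88.8 ± 8.27 in KO1 tumours, while in cells it was at 0 counts in all but KO3. In KO2 against WT, where 3.04% of genes were called, 1 of 4 fell, Col6a3, from 91.3 ± 27.0 to 43.6 ± 10.7 CPM (-1.05 ± 0.21, adjusted p = 0.0158). These chains were not refitted without single tumours or with the stromal score as a covariate.

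The genes whose log2 CPM followed each member most closely were ranked by Pearson r among genes averaging log2 CPM 2 or more, as a description with no test. Over the 13 tumours they were Lum, Ace and Mmp2 for Scara3 (r from 0.94 to 0.96), Fstl1, Col3a1 and Ppic for Sparc (all 0.98), Col6a2, Man2b1 and Mmp2 for Col6a1 (0.97 to 0.99) and Col6a3, Col15a1 and Tns3 for Pdgfrb (0.93 to 0.94). Pmp22 was followed by Hk3, Ccl2 and Srgn (0.94 to 0.95), Bloc1s1 by Ptpmt1, Fuca1 and Imp3 (0.86 to 0.89) and Hgsnat by Treh, Ogg1 and Lamp1 (0.81 to 0.84). Over the 8 cell libraries Bloc1s1 was followed by the ribosomal protein genes Rps28, Rplp1 and Rps29 (0.94 each), and Sparc by Abcf3, Irgq and Lss (0.99). Hgsnat in cells was nearest to Lyn, Mcts2 and Hdac1 (0.91 to 0.92) and Pmp22 to Lyrm2, Zfyve19 and Fto (0.96 to 0.97).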

How the data were processed

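The authors deposited gene-level estimated counts of 21 libraries, which need not be whole (7.96% to 10.2% of values per library had a fraction). They came from a stranded kit with paired 50 bp reads per the labels' protocols. Trim Galore 0.6.7, STAR, Salmon 1.5.2 and GRCm38 are named in the submitters' processing notes, whose settings are not stated there. Estimated counts split between overlapping or similar transcripts depend on that step.

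Counts were rounded, filtered with filterByExpr and given TMM factors. The test throughout is edgeR's quasi-likelihood test (version 4.0.16, under R 4.3.3), adjusted by Benjamini-Hochberg over all genes tested, at a threshold of 0.05. KO against WT was fitted by genotype and by line within cells (8 libraries) and tumours (13), and the interaction and the tumour against cell contrasts on all 21. Log2 CPM used a prior count of 2. Alternatives were DESeq2 1.42.0, DESeq2-type (RLE) scaling, no filter, the length-scaled table, a replicate block, a stromal covariate and leaving out libraries or lines. Tested on simulated data, the cell fit recovered 84% of genes changed by log2 1 and 100% by log2 2 over 12254 genes, and the tumour fit 69% and 97% over 14200. At log2 1 the KO1 test recovered 94% in cells and 55% in tumours, and the interaction 48%. False calls were 7.62% of the calls for KO1 in cells and 11.5% for the F test among KO lines in cells. Changes below log2 1, as those of the members in cells were, were not simulated.

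Replicate numbers did not pair libraries: correlations of deviations were -0.05 to 0.15 in cells and -0.39 to 0.16 in tumours. No replicate pair agreed within sampling noise (lowest chi-square per degree of freedom 7.98). Counts limit precision through depth, and limits on a count of 0 cover counting error only. The members and lists were chosen with earlier results of these data known. Besides the members, the genes named were Ern1, Xbp1, Dnajb9, Sec61a1, Ptprc and Krt8 where a result touched them, the 2 with the smallest p per list in each of KO against WT in cells and tumours, and the 3 most alike per member; Rdh5, genes of a line's calls and markers at 0 were named after their values were seen. A further pathway list is not reported here.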

Additional observations from a re-analysis of the deposited data

Results flagged for a closer look

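Pmp22 in WT tumour 1, at 52.9 CPM, lay far from the other 3 WT tumours (17.2 to 19.6 CPM), with a gap of 0.934 of the group's range, past Dixon's 95% limit for 4 values. It was the only outlying value in 18 groups tested, and chance marks about 1 group in 20. The same tumour had the highest scores of the 13 for skeletal muscle (8.70), leukocyte (5.68), adipocyte (4.75), pericyte and smooth muscle (4.40), endothelial (4.28), Schwann cell (2.36) and epithelial (1.86) markers; the part of these cells in the Pmp22 value was not tested.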

How the results depend on the processing

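Of 67 results on single genes, 27 kept direction and call under every alternative, 27 changed sign under some, and in none of the 56 sign changes did either value pass the threshold. The cause was not tested for any change below, beyond fewer samples or genes in the fit. In KO against WT cells, over 18 alternatives, adjusted p ran from 6.71e-07 to 0.203 for Sparc, 0.0174 to 0.519 for Pmp22, 0.298 to 0.914 for Bloc1s1 and 0.264 to 0.758 for Hgsnat. Depth limits Scara3, Col6a1 and Pdgfrb in cells, where 0 to 2 counts a library allow no fold change.

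Genes called in KO against WT cells were 1162 without KO1, 1137 without KO2, 4315 without KO3, 4780 with lines as groups and 38 with libraries summed per line, against 1808. In tumours, against 518, they were 332 with no filter, 1103 in DESeq2, 297 without KO1, 123 without KO2, 1118 with lines as groups, 0 with libraries summed per line in edgeR (1134 at an unadjusted p under 0.05), 246 with WT tumours 3 and 4 summed and 89 without WT tumours 1 and 4; KO3 tumours gave 322 with the stromal covariate. In a fit chosen after seeing the data, with that covariate and without WT tumour 1, KO1 tumours gave 254 calls, Hgsnat 0.0039 and Pdgfrb -0.025. Leaving KO3 out of KO tumours against KO cells was also chosen then. The interaction, against 146, had 325 in DESeq2, 83 without KO2 and 543 without KO3. With at least 5 stem pairs 1 gene held a stem-loop.

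With the replicate number as a replicate block, which the numbers do not support as pairs, the tumour count was 98, Bloc1s1 -0.020 and Sparc -0.059 in tumours; in cells Sparc was -0.56 (adjusted p = 0.00669). Other sign changes in KO against WT tumours were Scara3 -0.14, Sparc -0.26 and Col6a1 -0.014 without KO1, Pdgfrb 0.073 without KO2, Bloc1s1 -0.0088 and Sparc -0.059 with WT tumours 3 and 4 summed, and Bloc1s1 -0.055 and Pmp22 0.11 without WT tumours 1 and 4. With the stromal covariate they were Scara3 1.11, Hgsnat 0.031 and Col6a1 0.054 in KO2 and Pmp22 0.019 in KO3, and in the interaction without KO2 Pmp22 0.0012.

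Where leaving out a library leaves WT cells with 1 library, that library is assumed to vary like the other groups. Leaving out each library in turn, the counts called ran from 378 (without WT cell replicate 1; 428 without replicate 2) to 2221 in KO against WT cells, 2991 to 3858 in KO1, 2867 to 4045 in KO2 and 1377 to 1916 in KO3 cells, 2094 to 4247 among KO lines in cells, 154 (without WT tumour 2) to 594 in KO against WT tumours, 754 (without KO1 tumour 2) to 2506 (without WT tumour 1) in KO1, 149 to 512 in KO2 and 31 to 232 in KO3 tumours, 128 to 419 among KO lines in tumours and 42 to 192 for the interaction.

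Log2 changes that turned sign on leaving out 1 library are given by their range. They were, in KO against WT cells -0.26 to 0.051 for Bloc1s1, in KO2 cells -0.21 to 0.18 for Bloc1s1 and in KO3 cells -0.29 to 0.025 for Bloc1s1. In KO against WT tumours they were -0.11 to 0.014 for Hgsnat, -0.51 to 0.14 for Pmp22, -0.026 to 0.12 for Bloc1s1 and -0.13 to 0.54 for Sparc. In KO1 tumours they were -0.10 to 0.041 for Hgsnat, -0.62 to 0.021 for Pmp22 and -0.20 to 0.15 for Bloc1s1. In KO2 tumours they were -0.57 to 0.75 for Scara3, -0.092 to 0.057 for Hgsnat, -0.64 to 0.011 for Pmp22 and -0.034 to 0.21 for Bloc1s1. In KO3 tumours they were -0.28 to 0.36 for Pmp22, -0.43 to 1.02 for Scara3, -0.22 to 0.44 for Sparc, -0.11 to 0.16 for Bloc1s1 and -0.18 to 0.014 for Pdgfrb. In the interaction they were -0.0019 to 0.31 for Bloc1s1 and -0.28 to 0.43 for Pmp22, and in WT tumours against WT cells -0.043 to 0.27 for Bloc1s1.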
